A study of Mus musculus with 18 samples.

Results

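Oxidative phosphorylation couples the oxidation of NADH and succinate to the synthesis of ATP in the inner mitochondrial membrane. Electrons pass through complexes I, II, III and IV, of which I, III and IV pump protons, and complex V, the ATP synthase, uses the proton gradient. Complexes I, III, IV and V are built from subunits of both genomes, with the catalytic cores of I, III and IV partly encoded in mitochondrial DNA, whereas complex II is encoded wholly in the nucleus. Several subunits of complex IV exist as a ubiquitous form and a form of heart and skeletal muscle, and further forms are known from testis.

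The genes described here were the rows of the deposited FPKM table (fragments scaled by gene length and library total) whose symbol marks a structural subunit of these complexes (mt-, Nduf followed by a subunit letter and number, Sdha to Sdhd, Uqcr, Cox4 to Cox8 and Atp5). They numbered 101 of 21899 rows, of which 13 were mitochondrially encoded (7 of complex I, 1 of III, 3 of IV and 2 of V) and 88 nuclear-encoded (39 of complex I, 4 of II, 8 of III, 19 of IV and 18 of V). In at least 1 library, 100 of the 101 rows were above 0. The exception was the second of 2 identifiers that both carry the symbol Atp5o. The row Cox5b-ps is a pseudogene by its name.

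The 18 libraries came from liver, epididymal white adipose tissue (eWAT, labelled WAT) and quadriceps muscle of male wild-type C57BL/6 mice aged 18 weeks, with 3 libraries in each of 6 groups. CON mice received chow and tap water, and HSD mice received a high-salt chow with saline to drink for 12 weeks. Libraries carry the name of the mouse followed by L, W or M for the tissue. Mice CON16, CON72, HS2 and HS5 gave libraries of all 3 tissues, CON71 and HS3 of eWAT and muscle, and CON14 and HS4 of liver only. Within each diet, eWAT and muscle thus came from the same mice. The tissues were whole pieces, so fewer cells of a type and less RNA per cell cannot be told apart. Total fragments recovered from the FPKM values ranged from 7628073 to 16637489, and intervals and counts derived from them cover counting error only.

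Some libraries stood apart from their labels. The control liver library CON16L held skeletal muscle transcripts: 9 of 10 fast-fibre markers and 7 of 7 slow-fibre markers were at 1 FPKM or more. The fast-fibre markers summed to 4813 FPKM in CON16L, against 2.49 to 6.77 FPKM in the other 5 liver libraries and 64290 to 80612 FPKM in muscle. The sum of the slow-fibre markers in CON16L, 239 FPKM, lay within the 151 to 499 FPKM of muscle. Of these markers Atp2a2 was at 54.1 FPKM in CON16L and reached 43.8 FPKM in the other liver libraries. The other slow-fibre markers reached at most 1.40 FPKM there (Tnnt1). In eWAT, all 22 epididymal epithelium markers were at 1 FPKM or more in HS3W, where they summed to 27280 FPKM against 3.21 to 46.5 FPKM in the other 5 libraries. HS3W also had the lowest sum of adipocyte markers, 7515 FPKM against 17673 to 24339 FPKM. Male germ cell markers summed to 720 FPKM in HS2W, 360 FPKM in HS3W and 52.2 FPKM in HS5W, against 7.77 to 73.5 FPKM in the controls. The main liver comparisons are therefore given with and without CON16L. Hepatocyte markers were at 1 FPKM or more in 11 of the 11 found in the table in each liver library, adipocyte markers in 10 of 10 in each eWAT library, and brown fat markers in at most 1 of 5 in any library.

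The 13 mitochondrial genes fell into 2 ranges of abundance that did not follow the complexes. The 7 genes mt-Co1, mt-Cytb, mt-Nd1, mt-Nd2, mt-Nd4, mt-Nd5 and mt-Nd6 had medians over the 18 libraries from 2357 FPKM (mt-Nd6) to 36794 FPKM (mt-Co1). The other 6 had medians from 0.391 FPKM (mt-Atp8) to 345 FPKM (mt-Co2). Subunits of the same enzyme thus lay far apart: mt-Co2 and mt-Co3, which with mt-Co1 form the core of cytochrome c oxidase, stood at 0.907% and 0.557% of the mt-Co1 level in the median library. The share for mt-Co2 ranged from 0.751% to 1.22% and that for mt-Co3 from 0.398% to 1.14%.

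Of the 6 low genes, 5 had an annotated nuclear copy almost without differences. In the GENCODE M21 transcripts, 98.0% to 100% of the stretches of 50 bases of mt-Co2, mt-Co3, mt-Atp6, mt-Nd3 and mt-Nd4l occurred also in transcripts of other genes. These were pseudogenes in a run on the minus strand of chromosome 1 (mm10), from Gm28439 (chr1:24611535-24612410) to Gm29216 (chr1:24615706-24616197). Over their aligned length, the copies of mt-Co2 (681 bases), mt-Co3 (783 bases), mt-Atp6 (678 bases) and mt-Nd4l (294 bases) had 0 mismatches, and that of mt-Nd3 (345 bases) had 1, the substitution T3C counted from the first base of the mitochondrial gene. Among the 7 abundant genes, mt-Nd1, mt-Cytb and mt-Nd6 shared 0% of such stretches, mt-Nd5 7.61%, mt-Nd2 8.19%, mt-Co1 51.1% and mt-Nd4 62.2%. The low gene mt-Atp8 (chrM:7766-7969), which overlaps mt-Atp6 (chrM:7927-8607), shared 0% with annotated genes. Only annotated transcripts were searched. The stretch of chromosome 1 between the copies of mt-Atp6 (Gm10925) and mt-Co2 (Gm28661) was not read, so a copy of mt-Atp8 there was not looked for. None of the copies was a row of the table. Reads that match 2 places equally well are commonly not assigned to a gene in counting, and their part in these levels was not tested. The opening 100 bases of mt-Co2 and mt-Nd3 and of their copies are shown, with the base that differs in capitals. The stretches of mt-Co2 and its copy are identical, and those of mt-Nd3 and its copy can be told apart only where a read covers base 3. mt-Co2 is chrM:7013-7112 on the plus strand, Gm28661 is chr1:24615466-24615565 on the minus strand, mt-Nd3 is chrM:9459-9558 on the plus strand and Gm28438 is chr1:24613020-24613119 on the minus strand.
mt-Co2: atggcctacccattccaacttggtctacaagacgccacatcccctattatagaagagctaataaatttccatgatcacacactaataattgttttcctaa
Gm28661: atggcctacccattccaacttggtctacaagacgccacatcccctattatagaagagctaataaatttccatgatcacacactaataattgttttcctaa
mt-Nd3: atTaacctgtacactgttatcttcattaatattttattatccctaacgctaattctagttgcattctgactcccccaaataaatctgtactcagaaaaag
Gm28438: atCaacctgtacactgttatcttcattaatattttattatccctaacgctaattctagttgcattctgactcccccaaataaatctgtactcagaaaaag

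The low values rested on few fragments. For mt-Atp8 the 18 libraries held 0 to 5 fragments each, for mt-Nd4l 3 to 81 and for mt-Nd3 11 to 128, whereas mt-Nd6, the least abundant of the other 7, held 5400 to 38693. Whether the same part of their reads was counted in each library was not tested, so differences between libraries within these genes carry that limit. The levels of these 6 low genes cannot be set beside those of the other subunits.

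**Figure D1:**
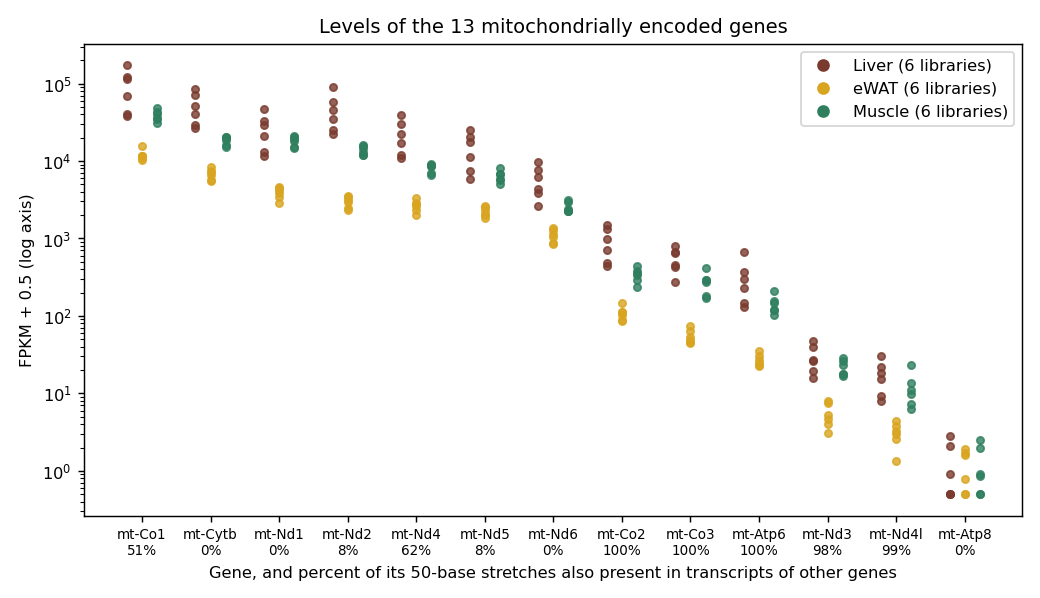
FPKM + 0.5 on a log axis (vertical) of each of the 13 mitochondrially encoded genes in 18 libraries (points, colored by tissue), ordered by median, with the percent of 50-base stretches shared with other genes under each name. The 5 genes at 98% or more and mt-Atp8 lie below the other 7 in each tissue, and eWAT points are lowest for all genes except mt-Atp8.

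In control mice, the balance of both genomes differed widely among the tissues. The summed FPKM of the 13 mitochondrial genes reached 319946 ± 138116 in liver, 111896 ± 16215 in muscle and 32649 ± 1720 in eWAT (SD, n = 3 each). Muscle had the highest summed FPKM of the 88 nuclear genes, 10574 ± 1001, followed by 5910 ± 45.2 in eWAT and 4759 ± 3030 in liver. Expressed as log2 of the ratio of the sums, mitochondrial transcripts exceeded nuclear ones by 6.24 ± 1.76 in liver, 3.40 ± 0.18 in muscle and 2.46 ± 0.09 in eWAT. The 3 ranges did not overlap: the ratio was 26.0 to 287 in liver, 9.76 to 12.2 in muscle and 5.14 to 5.72 in eWAT. Without CON16L the liver ratios were 287 in CON14L and 58.4 in CON72L. Each of the 3 tissue pairs gave the smallest p that 3 against 3 libraries allow (exact two-sided permutation p = 0.1, adjusted p = 0.1), so that no such comparison can pass 0.05.

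**Figure D2:**
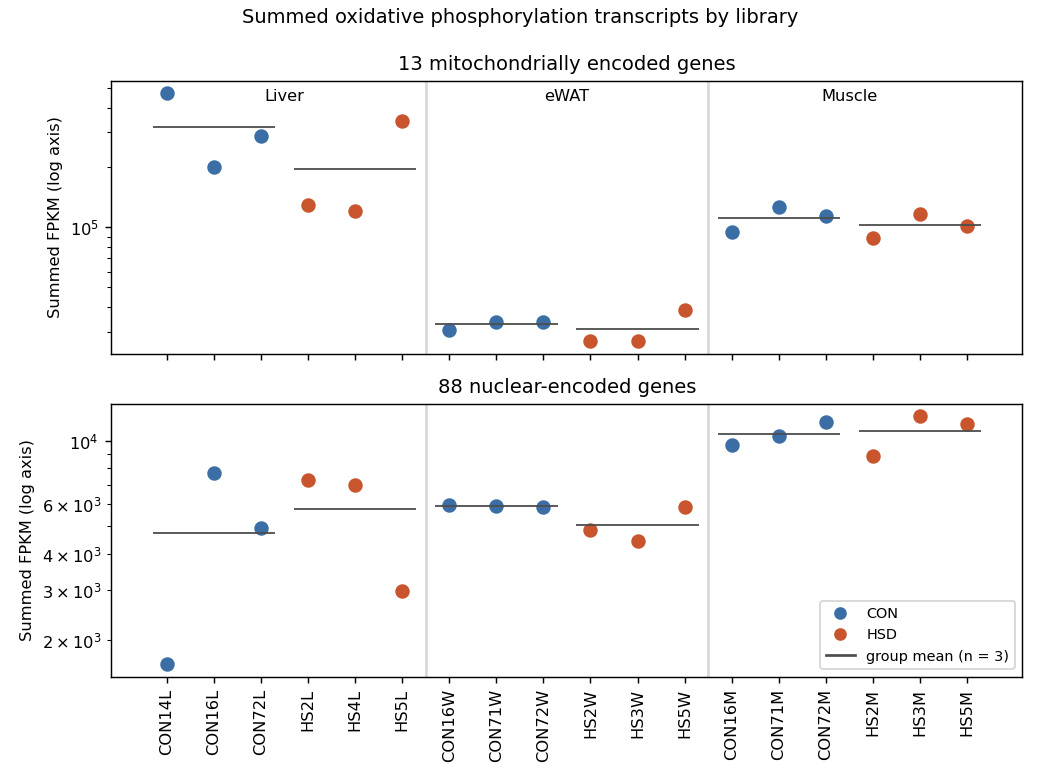
Summed FPKM (log axes) of the 13 mitochondrially encoded genes (top) and 88 nuclear-encoded genes (bottom) in each library, in blue for CON and red for HSD, with lines for group means (n = 3). In liver, CON14L and HS5L are highest in the top panel (470962 and 343281) and lowest in the bottom panel (1641 and 2954).

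Liver libraries differed among themselves more than the other tissues did. Nuclear members summed to 1641 FPKM in CON14L, 7693 in CON16L and 4943 in CON72L, and to 7306 in HS2L, 7021 in HS4L and 2954 in HS5L. The mitochondrial sum ran the other way, with 470962 FPKM in CON14L, 200033 in CON16L, 288842 in CON72L, 128948 in HS2L, 120493 in HS4L and 343281 in HS5L. Low nuclear sums occurred in both diets, and the groups overlapped on both measures. Mitochondrial genes took 60.8% of all fragments in CON14L and 44.4% in HS5L, against 15.4% to 37.8% in the other 4.

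The lower nuclear values exceeded what all genes showed. Relative to the mean of HS2L and HS4L, the 83 nuclear members tested in liver had a median log2 difference of -2.0 in CON14L, -1.22 in HS5L and -0.56 in CON72L. The corresponding medians of 10221 other nuclear genes were -0.23, -0.11 and -0.22. Members also differed in extent. Ndufb6, an accessory subunit of complex I, was at 0.398 FPKM in CON14L, 34.7 in CON16L, 16.9 in CON72L, 41.2 in HS2L, 28.8 in HS4L and 7.63 in HS5L. For Ndufa4, a small subunit now assigned to complex IV, the values were 7.59, 141, 54.4, 175, 169 and 19.2 FPKM in the same order. Cox7c, a small complex IV subunit, varied less, with 111, 219, 200, 226, 200 and 151 FPKM. Hepatocyte markers moved with these libraries, summing to 16915 FPKM in CON14L and 38879 in HS5L against 65256 to 87814 in the other 4. Their part in the liver values was not tested. Across the 6 liver libraries the median member had a log2 SD of 0.91, against 0.23 in eWAT and 0.26 in muscle, and 0.41, 0.27 and 0.20 for all genes tested.

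Muscle stood above liver in most nuclear members of complexes II, III and V. Among control mice (limma, 9 libraries, adjusted p under 0.05 and at least a 2-fold difference), 42 nuclear members were higher in muscle and 1 nuclear and 3 mitochondrial members were lower, of 96 tested. All genes tested were called at 50.1%, and the median of all genes was 0.52 in the same direction, so differences are best read relative to that shift. Without CON16L, 53 members were higher and 8 lower, 7 of the 8 mitochondrial, against 53.1% of all genes. After median-ratio scaling the split was 27 higher and 12 lower.

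By complex, the genes called higher in muscle than in liver were 18 of 38 nuclear members tested in complex I, 4 of 4 in II, 5 of 8 in III, 6 of 17 in IV and 9 of 17 in V. Without CON16L these counts were 25, 4, 5, 8 and 11. Sdha, the flavoprotein subunit of succinate dehydrogenase, was at 234, 230 and 215 FPKM in control muscle against 6.45, 49.3 and 11.3 in control liver, a log2 difference of 3.83 ± 0.60 (SE, limma adjusted p = 0.000346). The groups did not overlap, and the liver value nearest to muscle was that of CON16L. Atp5a1, the alpha subunit of ATP synthase, was at 766, 783 and 782 FPKM in muscle against 19.0, 200 and 42.7 in liver. Its log2 difference was 3.82 ± 0.70 (SE, limma adjusted p = 0.000947). Uqcrc2, a core protein of complex III, differed by 3.66 ± 0.68 (SE, adjusted p = 0.000971) and Ndufa9, an accessory subunit of complex I, by 3.55 ± 0.72 (SE, adjusted p = 0.00172). Cox5a, a nuclear subunit of complex IV, had 46.4, 49.8 and 57.5 FPKM in muscle and 0.874, 12.6 and 1.46 in liver (log2 difference 3.97 ± 0.69 SE, adjusted p = 0.000673). Without CON16L these differences were larger, 4.65 for Sdha, 4.74 for Atp5a1, 4.5 for Uqcrc2 and Ndufa9 and 4.97 for Cox5a, and each passed. The mitochondrial genes lay on the other side: all 12 tested were lower in muscle, with a median of -1.30, and mt-Co2 (-1.74 ± 0.35, adjusted p = 0.00166), mt-Co3 (-1.34 ± 0.33, adjusted p = 0.00524) and mt-Atp6 (-1.08 ± 0.25, adjusted p = 0.00411) passed. These 3 are low genes with nearly all of their 50-base stretches shared with nuclear copies, and none of the 7 abundant genes passed. The limma adjusted p of the abundant genes ranged from 0.0732 (mt-Nd2) to 0.447 (mt-Nd1). Without CON16L the 3 differences were -2.06, -1.56 and -1.05, and each passed, as did mt-Nd2, mt-Nd4, mt-Nd5 and mt-Nd6. The call of mt-Co3 was lost with array weights (adjusted p = 0.0832), and mt-Atp6 fell under the 2-fold limit without CON14L (-0.92) and without CON16M (-0.96).

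Against eWAT, both genomes were higher in muscle. Both tissues came from the same control mice, which the main fit did not pair. In that comparison (the same test) 23 nuclear and 7 mitochondrial members were called higher and 5 nuclear members lower of 96 tested, against 54.9% of all genes. Here the median of all genes was -0.93, whereas that of nuclear members was 0.84 and that of mitochondrial members 1.77. Median-ratio scaling, which removes that shift, gave 74 higher and 3 lower. The spread in this fit was shared with the liver libraries: with these left out, 45 members were higher and 5 lower (56.8% of all genes called), and the 12 mitochondrial genes tested were all called higher. Leaving out 1 of the 6 muscle or eWAT libraries gave 19 to 26 calls in all, the fewest without CON72M, 22 without CON71W and 23 without CON72W. Among mitochondrial genes, mt-Atp6 was at 118, 146 and 156 FPKM in muscle and 26.6, 24.3 and 29.5 in eWAT (log2 difference 2.36 ± 0.25 SE, adjusted p = 3.18e-05). Its abundant relative mt-Co1 was at 34879, 48902 and 40201 FPKM in muscle and 11451, 11662 and 11574 in eWAT, with no overlap, but its difference of 1.82 ± 1.14 (SE, limma adjusted p = 0.173) did not pass in the fit that shares the liver spread. In complex V, 17 of 17 nuclear members were higher in muscle by value and 2 were called. Of those 2, Atp5g1, which encodes a precursor of the same c subunit as Atp5g2 and Atp5g3, was at 61.8, 66.8 and 76.0 FPKM in muscle and 7.66, 7.44 and 7.07 in eWAT (3.12 ± 0.68 SE, adjusted p = 0.00242).

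Between eWAT and liver, the genomes diverged most. All 12 mitochondrial genes tested were called lower in eWAT, with a median of -3.09, whereas 22 nuclear members were called higher and 3 lower (69.4% of all genes called). The largest mitochondrial difference was that of mt-Nd2, at 2940, 3433 and 3517 FPKM in eWAT and 91015, 34693 and 45506 in liver (-3.99 ± 0.86 SE, limma adjusted p = 0.00176), although with no filter on low FPKM its adjusted p was 0.449. The call of mt-Co1 (-3.26 ± 1.14 SE, adjusted p = 0.024) was lost under 7 alternatives, with an adjusted p of 0.303 at a pseudocount of 0.1, 0.795 with no filter, 0.0549 with array weights, 0.142 without CON72L, 0.0565 without CON16W, 0.0623 without CON71W and 0.0817 without CON72W. Without CON16L, 38 members were higher and 13 lower against 71.2% of all genes, and without CON14L 13 were higher and 28 lower. The nuclear direction depended on the scale: the median of all genes was 1.36 higher in eWAT and that of nuclear members 0.49, and after median-ratio scaling 3 members were higher and 52 lower, 40 of them nuclear. Cox4i2, an isoform of subunit IV that responds to low oxygen, was called higher in eWAT, with 7.68, 8.96 and 9.0 FPKM against 0.665, 0.218 and 0 in liver (3.59 ± 0.33 SE, adjusted p = 6.51e-06). Sdha rose to 136, 125 and 124 FPKM in eWAT (3.01 ± 0.60 SE, adjusted p = 0.0011). Atp5b, the catalytic beta subunit of ATP synthase, had 304, 334 and 318 FPKM in eWAT against 21.8, 177 and 35.7 in liver (2.61 ± 0.65 SE, adjusted p = 0.00423). Ndufb8, a complex I subunit often used as a marker of its assembly, had 23.2, 25.5 and 22.3 FPKM in eWAT against 1.83, 8.31 and 2.61 in liver (2.59 ± 0.42 SE, adjusted p = 0.000276). Without CON16L the differences were 3.83 for Sdha, 3.49 for Atp5b and 3.16 for Ndufb8, and each passed. After median-ratio scaling Sdha (1.37, adjusted p = 0.0508) and Atp5b (0.95, adjusted p = 0.187) were no longer called.

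**Figure D3:**
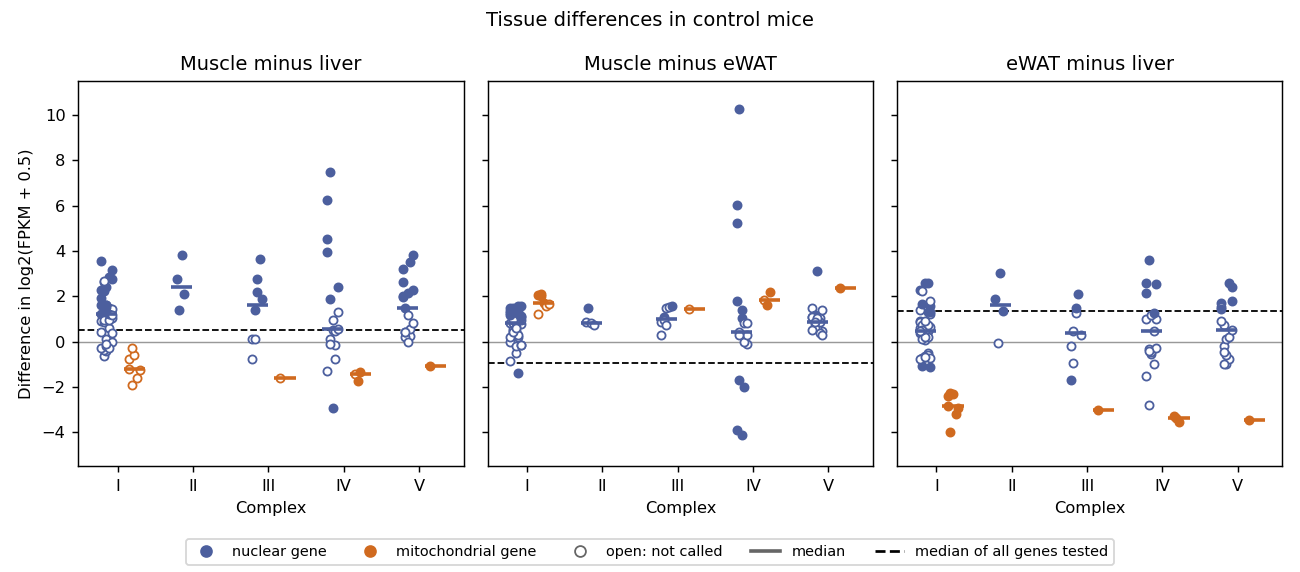
Difference in log2(FPKM + 0.5) between control tissues (vertical) of each tested member by complex, in blue for nuclear and orange for mitochondrial genes, filled where called, with bars at medians and a dashed line at the median of all genes tested. Mitochondrial genes lie below 0 in both comparisons with liver (medians -1.30 and -3.09) and above 0 in muscle minus eWAT (1.77).

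Tissue isoforms of complex IV showed the largest differences of all members. In control muscle the heart and muscle form Cox6a2 was at 691, 848 and 870 FPKM and its ubiquitous counterpart Cox6a1 at 19.5, 25.5 and 24.7. In eWAT the order was the reverse, with Cox6a1 at 438, 409 and 394 FPKM and Cox6a2 at 0.183, 0 and 0.265. Muscle and eWAT thus did not overlap for either gene (log2 difference 10.29 ± 1.82 for Cox6a2, limma adjusted p = 0.000685, and -4.13 ± 0.69 for Cox6a1, adjusted p = 0.000497). Cox6a2 took 97.2% ± 0.10 of the Cox6a sum in control muscle, Cox8b 87.4% ± 0.45 of the Cox8 sum and Cox7a1 57.2% ± 3.73 of the Cox7a sum (SD, n = 3). The muscle form of Cox7a was therefore accompanied by a near equal amount of Cox7a2, whereas those of Cox6a and Cox8 were nearly alone. Cox8b was at 210, 247 and 293 FPKM in muscle and 5.02, 5.32 and 8.01 in eWAT (5.26 ± 1.57 SE, adjusted p = 0.0128), and Cox8a at 29.9, 37.4 and 41.2 in muscle and 528, 539 and 531 in eWAT (-3.88 ± 0.59 SE, adjusted p = 0.000257).

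In liver the muscle forms were high in CON16L alone among the 6 libraries. Cox6a2 was at 186 FPKM in CON16L and at most 0.193 elsewhere, Cox8b at 79.8 and at most 0.803, and Cox7a1 at 46.3 and at most 4.14. These equal 23.1%, 31.9% and 31.9% of the control muscle means, whereas the fast-fibre markers Myh4, Acta1 and Myh1 reached 1.57%, 10.1% and 29.2% and the slow-fibre markers Myh7 and Tnnt1 38.7% and 97.4%. The muscle forms thus lay below the slow-fibre markers, and above most fast-fibre markers, as a share of their muscle level. In the comparison of muscle with liver, the log2 difference of Cox6a2 was 7.5 ± 1.82 with CON16L and 10.21 without it, that of Cox8b 6.25 and 8.56, and that of Cox7a1 4.52 and 5.98. All 3 passed in both fits. Cox6a1 was lower in muscle than in liver (-2.93 ± 0.69 SE, adjusted p = 0.00407, and -2.43 with an adjusted p of 0.0104 without CON16L).

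**Figure D4:**
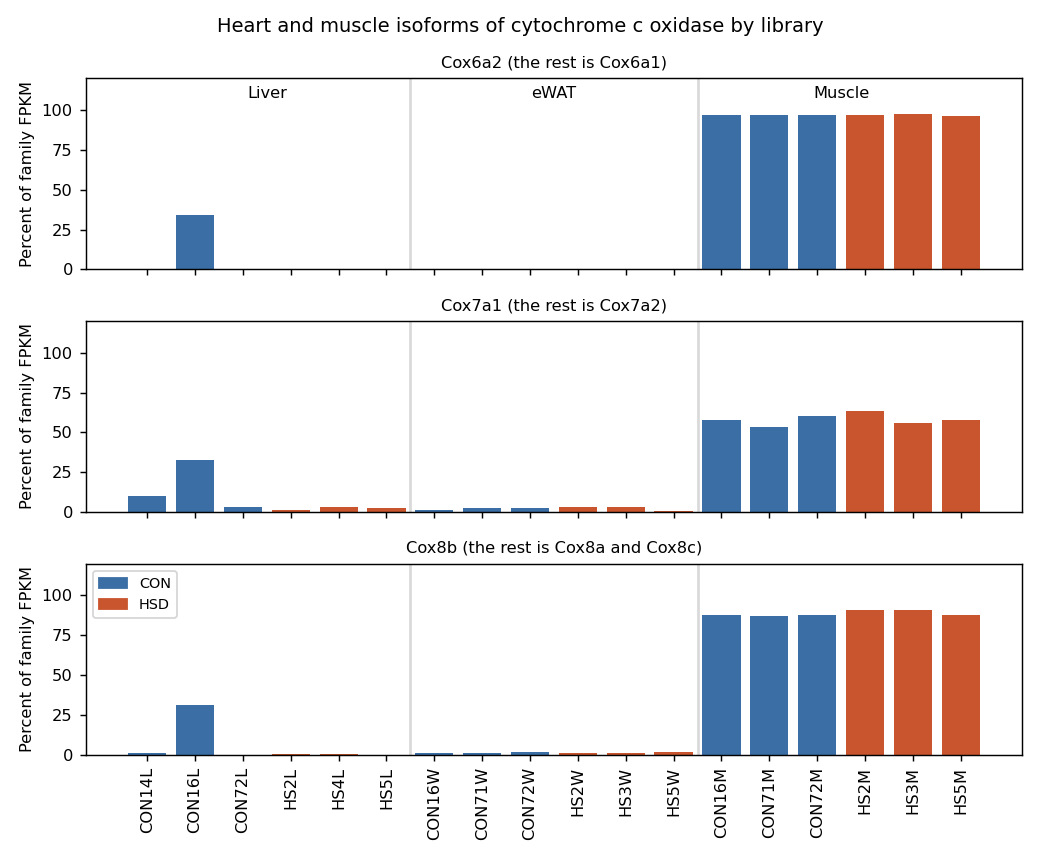
Percent of the family's summed FPKM taken by Cox6a2, Cox7a1 and Cox8b in each library (bars from 0, blue CON, red HSD). Muscle libraries lie at 96.4% to 97.7% for Cox6a2, and CON16L is the only liver library with over 20% for any of the 3 genes (34.1%, 32.8% and 31.0%).

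Promoters of these isoforms are shown because the genes differed most among tissues, as the 150 bases before the RefSeq start site (GRCm38.p6), with letters of the motifs searched in capitals. The table of RefSeq promoters used here matched 69 of 87 nuclear symbols. Among the isoforms described here, Cox4i1, Cox4i2, Cox6a2, Cox8c and Ndufa4l2 were not matched. Cox7a1 is chr7:30184021-30184170 (plus strand), Cox7a2 chr9:79759854-79760003 (minus), Cox8b chr7:140900447-140900596 (minus), Cox8a chr19:7217617-7217766 (minus) and Cox6a1 chr5:115348959-115349108 (minus).
Cox7a1: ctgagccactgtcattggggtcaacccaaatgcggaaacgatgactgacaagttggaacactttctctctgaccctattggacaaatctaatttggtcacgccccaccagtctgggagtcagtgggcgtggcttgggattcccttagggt
Cox7a2: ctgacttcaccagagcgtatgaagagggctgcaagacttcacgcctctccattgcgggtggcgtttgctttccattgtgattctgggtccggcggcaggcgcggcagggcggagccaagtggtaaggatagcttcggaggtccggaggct
Cox8b: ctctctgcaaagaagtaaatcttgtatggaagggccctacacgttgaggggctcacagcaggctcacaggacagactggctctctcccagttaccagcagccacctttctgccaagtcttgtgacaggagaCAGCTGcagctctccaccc
Cox8a: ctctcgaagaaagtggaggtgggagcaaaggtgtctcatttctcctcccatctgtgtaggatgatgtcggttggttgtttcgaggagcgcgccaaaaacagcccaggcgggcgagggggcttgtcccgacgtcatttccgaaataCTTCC
Cox6a1: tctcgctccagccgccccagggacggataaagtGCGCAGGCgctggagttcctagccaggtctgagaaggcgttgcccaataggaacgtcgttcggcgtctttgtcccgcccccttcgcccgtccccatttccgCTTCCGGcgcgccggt

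The motifs, searched on both strands of the 300 bases from 250 before to 50 after the start, were the core letters known for NRF1 (GCGCANGC), ETS factors such as GABP (CCGGAAG) and YY1 (AAGATGGC), with CAGCTG, an E-box letter string, and TATAAA. The NRF1 letters were present at 23 of 69 members (33.3%) and at 11.2% of all 27025 symbols. For the ETS letters the shares were 24.6% (17 of 69) and 9.93%, and for the YY1 letters 14.5% (10 of 69) and 3.19%. At least 1 of these 3 was found at 40 of 69 members (58.0%) and at 21.1% of all symbols. CAGCTG went the other way, with 8.70% of members and 18.3% of all symbols, and TATAAA was at 11.6% and 15.7%. Complex II held the NRF1 letters at 3 of 3 promoters, complex V at 8 of 15, complex III at 2 of 5, complex I at 9 of 33 and complex IV at 1 of 13, the 1 being Cox6a1. In the stretches printed, Cox6a1 had the NRF1 and the ETS letters and Cox8b had CAGCTG. The ETS match of Cox8a began 5 bases before the start and ran beyond it. These are letter matches in a window and show no binding.

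The 5 other lists of mitochondrial genes were measured between tissues, where 50.1% of all genes were called for muscle against liver, 54.9% for muscle against eWAT and 69.4% for eWAT against liver. Of 13 citric acid cycle enzymes, 12 were higher and 0 lower in muscle than in liver, 6 and 0 in muscle than in eWAT, and 11 and 0 in eWAT than in liver. Idh3a, the catalytic subunit of isocitrate dehydrogenase, had 156 ± 6.15 FPKM in muscle, 48.5 ± 3.65 in eWAT and 10.4 ± 10.2 in liver (SD, n = 3), where CON16L had 22.2 and the other 2 control libraries 4.21 and 4.78. Of 12 outer membrane and import genes, 10, 4 and 7 were higher in the same 3 comparisons and 0 lower. The voltage-dependent anion channel Vdac1 led these in muscle with 461 ± 12.2 FPKM, against 76.6 ± 4.76 in eWAT and 34.0 ± 37.6 in liver (SD, n = 3), where CON16L had 77.0 and the others 7.26 and 17.8. Of 42 assembly factors tested, 26 were higher and 1 lower in muscle than in liver, 12 and 4 in muscle than in eWAT, and 19 and 1 in eWAT than in liver. Genes for transcription and upkeep of mitochondrial DNA, 30 tested, split 11 and 2, 2 and 3, and 10 and 0. Of 9 regulators tested, 4, 2 and 3 were higher and 0 lower. For muscle against eWAT the share called was below that of all genes in each list. For eWAT against liver it was below in each list but the citric acid cycle. For muscle against liver it was below for the mitochondrial DNA genes and the regulators. Without CON16L, the lists in the order given had 12, 10, 29, 12 and 5 genes higher in muscle than in liver, and 11, 9, 23, 11 and 3 higher in eWAT than in liver. Ppargc1a, a coactivator of mitochondrial biogenesis, stood at 6.84 ± 1.31 FPKM in muscle against 1.15 ± 0.54 in liver and 1.29 ± 0.13 in eWAT (SD, n = 3).

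The comparison of HSD with CON mice asked whether a salt load alters these transcripts within each tissue. By limma (adjusted p under 0.05 and at least a 2-fold difference), 0 of 96 members tested in liver, 0 of 99 in eWAT and 0 of 95 in muscle were called. Of all genes, 0.323% were called in muscle, 0% in liver and 0% in eWAT. The smallest adjusted p of a member was 0.112 in muscle, 0.114 in eWAT and 0.764 in liver. Voom on the recovered fragments called 0 members in each tissue as well. In muscle, 54 genes were called with the replicate number as a block (0.498%) against 35 without, and 0 members in both. No label pairs CON with HSD mice, so the fit with the block is an alternative only. The smallest adjusted p of a member with the block was that of Ndufa4l2, 0.0395, at a log2 difference of -0.65, under the 2-fold limit.

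In eWAT, nuclear members leaned lower in HSD mice without passing the test. By value 74 of 86 nuclear members were lower, with a median log2 difference of -0.22 against 0.08 for all genes. At an unadjusted p under 0.05, 30 of 99 members were lower and 2 higher, whereas 7.55% of all genes tested were lower by that rule. In 41 of 99 members each HSD library lay below each CON library, against 12.4% of all genes. By complex the medians were -0.23 for I, -0.17 for II, -0.28 for III, -0.25 for IV and -0.22 for V. Summed nuclear members were at 5962, 5892 and 5877 FPKM in CON mice and at 4859, 4444 and 5834 in HSD mice. The control libraries lay within a narrow range and HS5W just below it, so that most of the difference stood in HS2W and HS3W. The median member differed from the CON mean by -0.29 in HS2W, -0.40 in HS3W and -0.05 in HS5W. HS2W and HS3W are the libraries with the most germ cell markers and HS3W the one with epididymal and few adipocyte markers, and the part of these in the result was not tested. Other markers moved with diet in eWAT. Macrophage markers summed to 592 to 880 FPKM in CON and 258 to 557 in HSD libraries. Of 11 hepatocyte markers, 10, 11 and 9 were at 1 FPKM or more in CON and 6, 4 and 3 in HSD libraries, with Alb at 108, 167 and 53.9 against 7.85, 3.30 and 5.87 FPKM, while their sums (1619, 1294 and 1117 against 2152, 687 and 2579 FPKM) overlapped. The part of these was not tested either. Without HS3W, 68 of 85 nuclear members were lower (median -0.16), 32 of 98 members were lower at an unadjusted p under 0.05, and 1 was called. The count lower at that p fell from 30 to 18 without HS2W and to 16 to 18 without any 1 of the CON libraries, and rose to 40 without HS5W.

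That 1 was Cox5b-ps, which shares 61.9% of its 50-base stretches with Cox5b. It was at 28.6, 27.4 and 25.3 FPKM in CON mice and 12.6, 16.5 and 12.1 in HSD mice, without overlap (-0.97 ± 0.14 SE, limma adjusted p = 0.114 with all libraries and 0.0212 without HS3W). Its counterpart Cox5b was at 65.6, 62.5 and 62.8 against 48.4, 45.8 and 59.6 FPKM (-0.32 ± 0.13 SE, adjusted p = 0.289). Ndufa4l2, a low-oxygen paralogue of Ndufa4, was at 18.5, 22.4 and 19.5 FPKM in CON eWAT and 13.3, 4.68 and 14.2 in HSD eWAT (-1.02 ± 0.41 SE, adjusted p = 0.296). Cox4i2 also did not overlap, with 7.68, 8.96 and 9.0 against 4.37, 4.33 and 6.01 FPKM (-0.75 ± 0.15 SE, adjusted p = 0.137). Atp5k, the small subunit e of ATP synthase, had 22.9, 25.6 and 24.0 against 12.3, 16.0 and 16.1 FPKM (-0.70 ± 0.13 SE, adjusted p = 0.127).

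A few members were higher by value in HSD eWAT. Among them, Cox7b2, Cox8c, Cox6b2 and Ndufb11b were highest in HS2W and HS3W, the libraries with the most germ cell markers. The first 3 are known as testis forms of complex IV subunits. The part of germ cells in these values was not tested. Cox7b2 was at 0 FPKM in the 3 CON libraries and at 1.89 in HS2W, 1.95 in HS3W and 0.141 in HS5W (1.64 ± 0.59 SE, limma adjusted p = 0.263). Cox8c was at 0, 1.44 and 0 FPKM in CON and at 6.40, 2.49 and 0.167 in HSD libraries (1.61 ± 0.99 SE, adjusted p = 0.438). The control value of 1.44 belonged to CON71W, which had the most germ cell markers of the CON libraries, whereas Cox7b2 was at 0 there. Cox6b2 was at 2.36, 2.32 and 1.41 against 6.81, 4.77 and 2.0 FPKM, and Ndufb11b at 0.0609, 0.515 and 0 against 2.65, 1.27 and 0.224. In liver and muscle Cox7b2, Cox8c and Ndufb11b were at 0 in all 12 libraries. The value of mt-Atp8 rested on 0, 0 and 1 fragments in CON and 4, 3 and 3 in HSD libraries (1.58 ± 0.31 SE, adjusted p = 0.132). Its neighbour in abundance mt-Nd4l had 13, 15 and 19 fragments against 10, 3 and 8 (-0.81 ± 0.33 SE, adjusted p = 0.299).

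In liver, no member reached even an unadjusted p under 0.05, whereas 5.74% of all genes did. By value 74 of 83 nuclear members were higher in HSD mice (median 0.35, all genes 0.13) and all 13 mitochondrial members lower (median -0.60). The nuclear direction depended on the libraries described above: without CON14L the nuclear median was -0.20, and without CON16L it was 0.89. The mitochondrial median stayed below 0, at -0.36 and -0.87 in these fits. Scaling without the mitochondrial genes also turned the nuclear median, to -0.03. With array weights, which count libraries that stand apart for less, 25 members were called, 20 nuclear members higher and 5 mitochondrial members lower, against 8.98% of all genes. With the libraries the study used (in liver without CON16L and HS5L), 1 of 93 members was called against 0.351% of all genes, with medians of 1.28 for nuclear and -1.34 for mitochondrial members and 0.24 for all genes. At an unadjusted p under 0.05, 45 members were then higher and 4 lower, against 24.2% and 7.56% of all genes. The largest values were those of Ndufb6 (1.39 ± 1.32 SE, limma adjusted p = 0.773), Ndufa4 (1.07 ± 1.22, adjusted p = 0.8) and Cox6a1 (1.04 ± 0.97, adjusted p = 0.772). The lowest were those of Cox6a2 (-3.14 ± 1.99), Cox8b (-2.04 ± 1.74) and Cox7a1 (-1.52 ± 1.17, each with adjusted p = 0.764), and they rested on CON16L. Without that library Cox6a2 and Cox8b were too low to be tested and Cox7a1 had a difference of -0.06.

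In muscle, members varied little with diet, and 4 of 95 were lower at an unadjusted p under 0.05 and 0 higher, whereas 12% of all genes were lower by that rule. The nuclear median was 0.03, that of mitochondrial genes -0.05 and that of all genes -0.06. The 4 were all of complex I by name. mt-Nd4l was at 13, 23 and 10.5 FPKM in CON and 5.82, 6.74 and 9.23 in HSD mice (-0.99 ± 0.26 SE, limma adjusted p = 0.112). Ndufa4l2 was at 6.20, 9.56 and 7.18 against 3.22, 5.63 and 5.37 FPKM (-0.65 ± 0.21 SE, adjusted p = 0.181), lower without overlap. In muscle 5 of 95 members were lower without overlap, and the share of all genes was not counted. Ndufa4l2 was also lower without overlap in eWAT, where 41 of 99 members were. mt-Nd5 was at 6709, 8226 and 6825 against 5860, 5712 and 5087 FPKM (-0.38 ± 0.15 SE, adjusted p = 0.25) and Ndufs1, a core subunit of the electron input module, at 43.1, 50 and 43.9 against 37.2, 40.1 and 32.7 (-0.31 ± 0.12 SE, adjusted p = 0.256). The largest values upward were those of Ndufa6 (0.29 ± 0.18, adjusted p = 0.462), Atp5k (0.24 ± 0.17, adjusted p = 0.499) and Cox6a1 (0.24 ± 0.18, adjusted p = 0.537), all with overlapping groups. Of the 4 succinate dehydrogenase subunits all were lower by value, with a median of -0.19. HS2M had the lowest nuclear sum of the 6 muscle libraries (8844 FPKM) and HS3M the highest (12198 FPKM), both of HSD mice. Without HS2M the nuclear median was 0.25, and 26 members were higher and 5 lower at an unadjusted p under 0.05. Of the fibre markers, the slow-fibre Myh7 and Myl3 and the fast-fibre Myh1 are given because their groups did not overlap. They were picked by that outcome, and how many of all genes did not overlap in muscle was not counted. Myh7 was at 13.3, 29.2 and 16.7 FPKM in CON against 9.71, 3.78 and 8.29 in HSD mice. Myl3 was at 64.0, 130 and 99.6 against 40.3, 42.9 and 57.1, and Myh1 at 865, 697 and 664 against 484, 321 and 312. The slow-fibre markers summed to 230, 499 and 375 against 151, 180 and 234 FPKM, with overlap. The sum of the fast-fibre markers went the other way from Myh1, with 70872, 64290 and 71491 against 71983, 75584 and 80612 FPKM. That sum was higher in HSD mice without overlap. The part of the fibre markers in the muscle values was not tested.

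**Figure D5:**
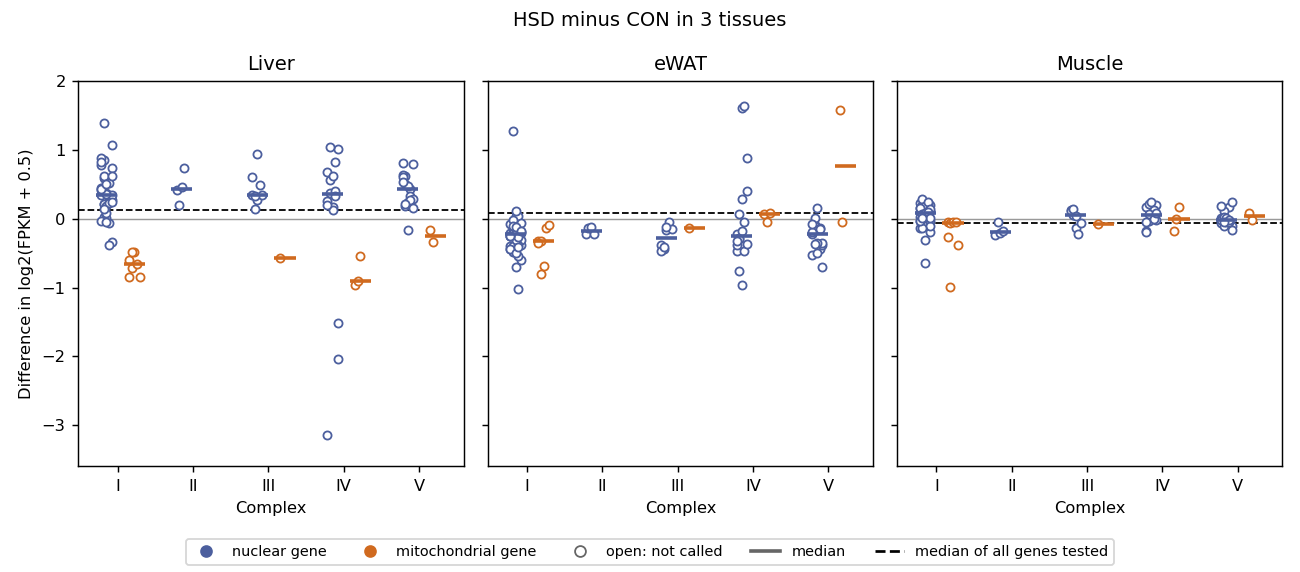
Difference in log2(FPKM + 0.5) between HSD and CON mice (vertical) of each tested member by complex and tissue, in blue for nuclear and orange for mitochondrial genes, with bars at medians and a dashed line at the median of all genes tested. All points are open since 0 members were called, and nuclear medians in eWAT lie below the dashed line in each complex.

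The diet responses of the tissues were compared directly as interactions. Of 98 members tested, 0 were called for liver against eWAT, 0 for liver against muscle and 0 for eWAT against muscle. All genes were called at 0.758%, 0.0612% and 0% in these comparisons, and the smallest adjusted p of a member was 0.329, 0.709 and 0.702 (limma). At an unadjusted p under 0.05, 1 member passed for liver against eWAT and 0 for each other pair. With the libraries the study used (without CON16L, HS5L and HS5W), 50 members were called for liver against eWAT and 31 for liver against muscle, where 18.7% and 9.78% of all genes were called.

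The balance of mitochondrial and nuclear transcripts did not pass between diets either. In liver it stood at 5.03 ± 1.58 log2 units in HSD and 6.24 ± 1.76 in CON mice (SD, n = 3). The corresponding values were 2.60 ± 0.13 and 2.46 ± 0.09 for eWAT and 3.25 ± 0.08 and 3.40 ± 0.18 for muscle. In this order of tissues, exact two-sided permutation tests gave p = 0.5, 0.3 and 0.3, and 0.5, 0.45 and 0.45 after Benjamini-Hochberg adjustment over the 3 tissues. The groups overlapped in each tissue.

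Isoform shares gave 42 tests of diet over families and tissues, of which none could pass, with exact permutation p of at least 0.1 and adjusted p of at least 0.247. Those at the limit of 0.1, where the groups did not overlap, included the share of Ndufa4l2 beside Ndufa4, at 11.9%, 14.2% and 12.3% in CON and 10.4%, 4.32% and 9.30% in HSD eWAT. In muscle the same share was 2.62%, 3.37% and 2.3% against 1.51%, 1.56% and 1.62%. The share of Cox4i2 beside Cox4i1 in eWAT was 4.92%, 5.89% and 6.05% against 3.58%, 3.56% and 3.94%. In muscle Cox8b took 87.6%, 86.8% and 87.7% of the Cox8 sum in CON and 91.1%, 90.6% and 87.7% in HSD mice, the last just above the highest CON library. The shares of Cox6a2 and Cox7a1 in liver also reached 0.1, with differences of -11.5 and -13.2 percentage points. They rested largely on CON16L, since Cox6a2 took 0.421% at most and Cox7a1 10.2% at most of the family sum in the other liver libraries. Among the precursors of subunit c, Atp5g3 supplied the most in control mice, with 49.4% ± 4.53 in liver, 67.7% ± 0.05 in eWAT and 52.8% ± 2.92 in muscle (SD, n = 3). HS3W had 13.1% of Atp5g1, against 4.35% to 4.93% in the other eWAT libraries.

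Lists outside the subunits had 0 genes called between diets in the 3 tissues. By value, 40.9% of all genes tested were lower in HSD mice in eWAT, 60.8% in muscle and 37.3% in liver. In eWAT all 13 citric acid cycle enzymes were lower by value (median -0.22), as were 32 of 42 assembly factors (median -0.15) and 8 of 12 outer membrane and import genes (median -0.10), whereas 20 of 30 genes for mitochondrial DNA transcription and upkeep (median 0.15) and 7 of 9 regulators (median 0.23) were higher. In muscle 12 of 13 citric acid cycle enzymes were lower (median -0.15), 27 of 42 assembly factors (median -0.07), 9 of 12 outer membrane and import genes (median -0.06), 14 of 29 genes for mitochondrial DNA (median 0.02) and 7 of 10 regulators (median -0.18). In liver 9 of 13, 26 of 38, 12 of 12, 17 of 29 and 6 of 8 genes of these lists were higher, with medians of 0.10, 0.13, 0.31, 0.06 and 0.16. Without CON16L the numbers higher were 13, 32, 12, 16 and 6. None of these shifts in members or lists is a call, and blood markers also differed between libraries: blood markers summed to 5626 FPKM in CON16L and 5667 in CON16W against 237 to 842 in the other liver and 243 to 744 in the other eWAT libraries.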

How the data were processed

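Total RNA of each tissue was made into stranded libraries. Reads were trimmed with cutadapt and aligned with HISAT2 to mm10, and the authors deposited FPKM values per Ensembl gene (cuffdiff in the study's methods, HTSeq 0.9.1 in the submitters' processing notes, which also name mm9). Each deposited FPKM value is scaled by gene length and library total. With union exon lengths of GENCODE M21, 97.4% of the genes above 0 came out as whole fragments (within 0.01) in all libraries, members included. Tables were read in Python 3.11.15 (pandas 2.3.3).

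Genes averaging 0.5 FPKM or more across the fitted libraries were tested on log2(FPKM + 0.5) with limma 3.58.1 (R 4.3.3, trended eBayes) and Benjamini-Hochberg adjustment over all genes tested. A fold change on this scale understates that of low genes. A gene was called at an adjusted p under 0.05 and an absolute log2 difference of at least 1. Diet was fitted within a tissue (6 libraries), tissue among CON libraries (9) and the interaction over all 18. P-values measure the spread between mice of a group, 3 each. The main tissue and interaction fits and the permutation tests between tissues took libraries of the same mouse as independent. The fits recovered most planted changes in simulated counts that had 1 spread setting for all genes and no library standing apart. The simulation did not copy the spread among the liver libraries. It therefore cannot show how well differences would be found in liver. Sums, shares and the balance were compared by exact permutation tests.

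Members, gene lists and marker lists were chosen with earlier results of these data known. Named were the mitochondrial genes, the isoform families, the 3 largest diet differences each way, the 5 largest called tissue differences each way and up to 3 called genes of a list, and other members were named after their values were seen. No label pairs CON with HSD mice. Same-numbered muscle libraries had correlated deviations from their group means (0.38, 0.18 and 0.18), but CON72M and HS3M reached 0.18 as well. In eWAT the libraries numbered 3 reached 0.41. These values do not establish pairs, so the replicate number served as a block only in an alternative fit. Alternatives were other pseudocounts, filters and scalings, array weights, blocks and leaving out libraries. The interaction and isoform shares without CON16L, and muscle against eWAT without liver libraries, were chosen after seeing the data.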

Additional observations from a re-analysis of the deposited data

Results flagged for a closer look

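The balance of mitochondrial and nuclear transcripts moved in opposite directions with diet in 2 tissues. Each HSD library of eWAT lay above the CON mean (mean difference 0.13 log2 units) and each HSD library of muscle below it (-0.15). By the mean of log2 values HS2W (2.97) and HS3W (2.94) lay below the CON mean of 2.98, and by recovered fragments HS2W (2.03) lay below the CON mean of 2.06, so that the eWAT pattern rested on the sums of FPKM. In muscle the CON mean was raised by CON71M (3.61), with CON16M at 3.30 and CON72M at 3.29, both below HS2M at 3.32. HS3M (3.26) and HS5M (3.15) lay below each CON library. Without CON71M the muscle difference was -0.046. The difference between the tissues was not tested, and within each tissue HSD and CON libraries overlapped.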

How the results depend on the processing

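Of the counts of called members, 116 were unchanged or stayed within 1.5 times under the alternatives, a rule that does not look at direction. For eWAT against liver, a count within that limit, the split of 22 higher and 15 lower became 3 and 52 with median-ratio scaling. Without CON14L it became 13 and 28. The exceptions were these. With array weights 25 members were called in liver (926 genes) and 2 in eWAT (220 genes), and with the study's libraries 1 in liver (35 genes), 50 for diet in liver against eWAT and 31 for liver against muscle. Median-ratio scaling gave 77 calls for muscle against eWAT. Leaving out 1 library gave 0 to 1 in eWAT (1 without HS3W, with 160 genes called) and 19 to 26 for muscle against eWAT. In liver, Ndufb6 ranged from -0.20 to 2.44 and Ndufa4 from -0.077 to 2.11 on leaving out 1 library, each negative only without CON14L, Cox8b turned to 0.38 with array weights and Cox7a1 to 0.40 with the study's libraries. The causes were not tested. The 58 values of the balance and the 78 of isoform shares kept their direction. All but 1 (Cox4i2 in eWAT, -1.03 percentage points by recovered fragments against -1.93) moved by less than the larger SD of the groups compared. That limit is wide in liver, where the SD of 1.76 exceeded the size of the diet difference in balance, -1.21. Without CON14L that difference was -0.25, and with the study's libraries it was -2.90. In muscle, 7 genes were called with no filter, 51 with a pseudocount of 0.1, 97 without the fold limit, 57 without mitochondrial genes, 72 by voom on recovered fragments, and 10 to 61 on leaving out 1 library, against 35. For the interactions, 41 to 2455 genes were called for liver and eWAT (99 as reported), 4 to 1286 for liver and muscle (8) and 0 to 170 for eWAT and muscle (0), the most with the study's libraries. With the replicate block, 0 members were called for diet in each tissue, and with the mouse as replicate block 46, 38 and 37 in the tissue comparisons. The 38 for muscle against eWAT differed from the count of the main fit, and equal totals need not be the same members. With 3 libraries a group, depth limited mt-Atp8, mt-Nd4l and mt-Nd3 most, and an exact permutation test could not go below 0.1.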
